A study of Mus musculus with 6 samples.

Results

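Cytosolic ribosomal proteins are the protein subunits of the ribosomes that translate nuclear mRNAs in the cytoplasm. They were taken here as the genes named Rpl or Rps followed by a number, together with the stalk proteins Rplp0, Rplp1 and Rplp2 and the small subunit proteins Rpsa and Fau, and without named pseudogenes and the S6 kinases. The rule found 82 of the 45583 genes in the count table, 49 for the large and 33 for the small subunit. RNA was sequenced from the brain cortex of 6 male fetuses of the Cyp19-EGFP strain at GD15.5 (gestational day), 3 from dams injected with vehicle (peanut oil) and 3 from dams injected with bisphenol A (BPA, a plastic monomer that acts on estrogen receptors). Injections were subcutaneous, began at GD10.5 and ended at GD14.5, and the BPA dose was 50 µg/kg. The Cyp19-EGFP strain is kept on the FVBN background and carries a bacterial artificial chromosome with the aromatase gene Cyp19a1 and a green fluorescent protein. The labels give the genotype of every fetus as WT, SRY +, and do not say whether the fetus itself carried the transgene. Each fetus gave 1 library, and as litter is not in the labels, p-values measure only the spread between these libraries.

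Each ribosome needs a single copy of nearly all of its proteins, and cells that divide or grow quickly, such as the progenitors of the fetal cortex, make large amounts of them. Their mRNAs begin with a terminal oligopyrimidine tract (TOP), a run of C and T bases at the transcription start through which the kinase mTOR sets how strongly they are translated. Mammalian genomes also hold many processed pseudogenes of these genes, copies of the mRNA that were pasted back into the genome without introns, so a short read from a ribosomal protein mRNA can match several places.

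Total counts were 5030652 to 7180835 in the vehicle libraries and 3444601 to 6426857 in the BPA libraries, and a count of 0 allowed up to 0.422 CPM (counts scaled to a common library size) in the deepest and 0.875 CPM in the shallowest library, counting error alone. Summed markers of cortical neurons were alike in both groups, at 5035 to 5415 CPM with vehicle and 5040 to 5217 CPM with BPA. Vehicle 2 and BPA 2 stood together on the first principal component of all genes. The summed level of 5 choroid plexus markers was 217 and 347 CPM in these libraries and 4.12 to 17.1 CPM in the other 4. All 7 markers of the ventral telencephalon were lower with BPA, and their summed level was 977 to 1112 CPM with vehicle and 861 to 940 CPM with BPA.

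The coding sequences showed how much the genes share with other places in the genome, and a few are printed to show how alike a gene and its copy can be. The annotation used was GENCODE M21 (GRCm38), and sharing was measured as the percentage of a gene's coding words of 50 bases, the length of a read, that also occur in an annotated transcript at another locus. The median over the 81 members with a coding sequence was 90.3%, and 30 members shared all of their words. Rps29, a zinc-binding protein of the small subunit, shared all of them.

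Rps7, a small subunit protein (chr12:28630854-28635953, minus strand), differed from its processed pseudogene Gm6472 (chrX:152909505-152910155, minus strand) at 3 of 582 coding bases, 2 of which are in capitals in the first 60:
Rps7: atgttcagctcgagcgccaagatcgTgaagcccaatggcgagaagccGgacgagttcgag
Gm6472: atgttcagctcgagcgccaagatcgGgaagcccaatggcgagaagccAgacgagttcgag

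Rpl4 (chr9:64173375-64178666, plus strand), which lines the tunnel through which the new protein leaves the ribosome, shared only 20.3% of its coding words. Aligned without gaps, it differed from its pseudogene Gm5835 at 401 of 1257 coding bases. A gained or lost base would raise that count. The stretch from coding base 121 to 180, counted from 1 at the A of the start codon, differs at 3 bases, in capitals, from its pseudogene Gm5835 (chr1:143093347-143094616, minus strand):
Rpl4: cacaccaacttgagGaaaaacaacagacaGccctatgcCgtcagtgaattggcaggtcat
Gm5835: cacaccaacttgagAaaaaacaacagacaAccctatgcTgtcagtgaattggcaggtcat

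The start sites were also compared, since the pyrimidine tract is the feature that these genes are known to share. RefSeq start regions (GRCm38.p6) were given for 61 of the 82 members. A run of at least 8 bases that are each C or T, read on the gene's strand and touching the stretch from 20 bases before to 20 bases after the start, was present in 33 of them (54.1%), against 2305 of 9644 genes tested (23.9%). The share was 56.8% for the large and 50.0% for the small subunit, 52.9% of 17 translation factors and other genes known for the tract, and 25.0% of 68 mitochondrial ribosomal protein genes. The windows of Rplp2 (chr7:141447631-141447670), Fau (chr19:6057927-6057966), Rps6 (chr4:86857348-86857387), Rpl28 (chr7:4792945-4792984) and Rpl4 (chr9:64173367-64173406) are shown with the run in capitals, beside that of Rplp0 (chr5:115559447-115559486), whose longest run there is 7 bases. Rps6 is on the minus strand and the others are on the plus strand:
Rplp2: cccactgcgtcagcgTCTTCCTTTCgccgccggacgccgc
Fau: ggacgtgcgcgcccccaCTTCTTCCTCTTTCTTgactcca
Rps6: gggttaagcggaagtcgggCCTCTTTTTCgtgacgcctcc
Rpl28: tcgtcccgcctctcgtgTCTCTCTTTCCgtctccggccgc
Rpl4: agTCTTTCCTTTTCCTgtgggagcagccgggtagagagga
Rplp0: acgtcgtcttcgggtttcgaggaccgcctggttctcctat

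Such a match describes the letters of the window and is not a measured start or a site.

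The members differed widely in level, although their proteins are needed in nearly equal numbers. Levels between genes were compared as CPM per kilobase of exons, with libraries scaled by edgeR's trimmed mean method (TMM). Over the 67 members that passed the filter on low counts, the mean of the 6 libraries ranged from 0.815 to 855 with a median of 5.65, a range of 1050-fold that was 494-fold with the longest coding transcript and 2480-fold per kilobase of words not found in another gene. The median was 5.62 for 40 large subunit genes and 10.4 for 27 small subunit genes. The remaining 15 members, 9 of the large and 6 of the small subunit, had too few counts to test.

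Rplp1, a protein of the stalk that recruits elongation factors, had the highest level per kilobase. It was 665, 1106 and 955 CPM per kilobase in the vehicle libraries and 745.5, 1020 and 641 in the BPA libraries, so vehicle 2, vehicle 3 and BPA 2 were the highest and the groups overlapped. Rpl4 followed with 387, 435 and 431 CPM per kilobase with vehicle and 370, 449 and 391 with BPA. Its libraries lay close together, and all were below the lowest library of Rplp1. Rps15, a small subunit protein near the site where tRNAs are read, was at 301 ± 43.1 with vehicle and 278 ± 29.7 with BPA (mean ± SD, n = 3 each). Rplp0, the base of the stalk, was at 228 ± 36.2 and 232 ± 12.5 CPM per kilobase in the same order. Rpl8, a protein near the catalytic center, was at 225 ± 30.2 and 202 ± 15.6. In the order of the 67 levels, the 6 libraries of Rplp1 did not overlap those of Rpl4, and those of Rpl4 did not overlap those of Rps15. The libraries of the other 64 of the 66 adjacent pairs overlapped. Such ranges set aside that both genes of a pair were measured in the same libraries. Rps15, for example, was above Rplp0 in every library although their ranges overlapped. The ranges alone therefore do not settle the order among neighbors.

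At the low end were proteins that are just as much part of every ribosome. Rps12 had the lowest level tested, 0.653, 0.625 and 0.778 CPM per kilobase with vehicle and 1.01, 0.962 and 0.864 with BPA. Rps28 was at 1.06 ± 0.195 with vehicle and 0.961 ± 0.208 with BPA. Rps2, which lines the channel where mRNA enters, was at 1.17 ± 0.188 and 1.105 ± 0.144, and Rpsa, also known as the laminin receptor, was at 1.28 ± 0.193 and 1.33 ± 0.217. Rpl11, which with Rpl5 binds the smallest rRNA and can hold back Mdm2, was at 1.25 ± 0.355 and 1.498 ± 0.771. Rps6, the target of the S6 kinases, was at 1.45 ± 0.748 and 1.43 ± 0.130. Rpl5 itself was at 5.88, 6.62 and 7.30 CPM with vehicle and 11.0, 6.66 and 7.002 CPM with BPA, high in BPA 1 alone. Of these 6 lowest members, 5 belong to the small subunit, as Rps15 does.

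**Figure D1:**
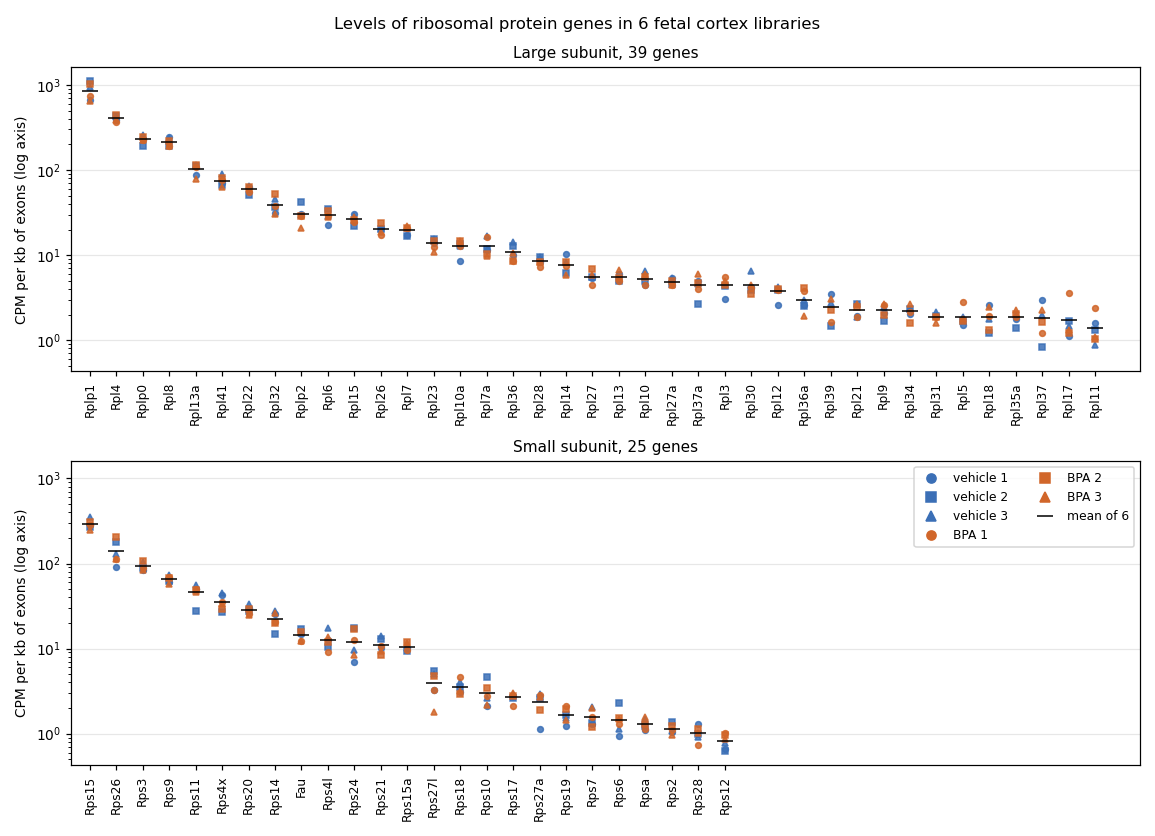
Level of 64 of the ribosomal protein genes tested in CPM per kilobase of exons (log axis), 39 genes of the large subunit above and 25 of the small subunit below. Symbols are the 6 libraries, vehicle in blue and BPA in orange, and the black bar is their mean. The levels fall from Rplp1 at 855 to Rps12 at 0.815, a range far wider than that of the libraries of a single gene. Those of Rplp1 ran from 641 to 1106.

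Counts per coding base tended to be lower where more of the coding sequence is found elsewhere. The counts are those of all exons, which for Rps24 span 6256 bases, against 399 bases of coding sequence. The levels per kilobase of exons were not compared with the share in this way. The 5 members with 10% or less of their coding words at another locus had a median of 13.2 counts per coding base over the 6 libraries together, and the 30 members with all words at another locus had 0.294. Between these, the median was 6.59 for 10 members with over 10% to 50%, 1.34 for 23 members with over 50% to 90%, and 0.404 for 13 members with over 90%. Rps3, which lies at the mRNA entry, shared 8.09% of its words and had 14582 counts, and Rpl8 shared 8.73% and had 10186. Rpl23a, Rpl24, Rps29, Rpl38 and Rps13, all with every word at another locus, had 7, 18, 19, 22 and 28 counts. Across the 81 members Spearman's rho between the share and the counts per coding base was -0.465 and Pearson's r with log2 values was -0.297. Both describe genes that share libraries and sequence and are not independent.

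The relation had exceptions on both sides. Rpl41 and Rpl15 shared all coding words and had 3037 and 2274 counts, but the coding sequence of Rpl41 is only 75 bases long within an mRNA of 544 bases, so most of its counts can come from outside it. Rplp1 shared 60.4% and had 15191 counts. Rps2 shared 84.1% and had 74 counts. On the other side, Rpl3l and Rpl39l shared no word and had 3 and 0 counts; they are the paralogs of striated muscle and testis. Without these 2 and Rpl10l, another testis gene, rho was -0.639. How reads with several matches were counted is not given in the sources used here, and its part in these counts was not tested.

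**Figure D2:**
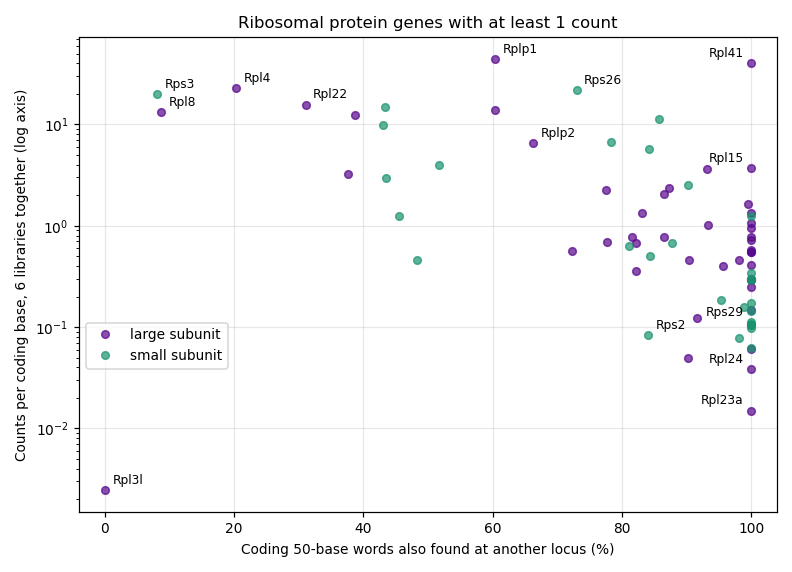
Percentage of each gene's coding words of 50 bases that also occur at another annotated locus, against its counts per coding base in all 6 libraries together (log axis), for members with at least 1 count that are reported here. Rps3, Rpl8 and Rpl4 at the left hold high counts, and most members at 100% lie below 1, with Rpl41 and Rpl15 as the highest of them.

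Several processed pseudogenes carried more counts than the gene they were copied from. Of 428 pseudogene rows that hold at least 50 coding words of a member, 352 had at least 1 count, and 28 had more counts than their member. The counts were concentrated: 12 rows held 72.1% of the 42960 counts on all of them. Gm14303 had 376, 663 and 438 counts in the vehicle libraries and 383, 440 and 142 in the BPA libraries, where Rps29 itself had 4, 6 and 0, and 5, 3 and 1. The pseudogene thus took 98.7% to 100% of the counts of the pair in every library. Gm6472 had 2407 counts in all against 107 for Rps7, and Gm12254 had 817 against 18 for Rpl24. Gm9843 had 2527 counts against 495 for Fau, whose protein is made as a fusion with a ubiquitin-like part. Rpl14-ps1 had 3998 counts against 453 for Rpl14, but it lies within Trpm4, whose reads cannot be told apart from its own without knowing how strand was used.

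The split within a pair was nearly the same in all libraries for some pairs. Gm5835 held 11.7% to 12.7% of the counts of its pair with Rpl4, and Gm9843 held 79.6% to 85.7% of its pair with Fau. For others it varied. Rps26-ps1 held 6.4% to 29.7% of its pair with Rps26, and was lowest in BPA 2 and vehicle 2. Gm8292 held 8.45% to 32.9% of its pair with Rps24, and was also lowest in BPA 2 and vehicle 2. Gm6030 held 8.47% to 19.9% of its pair with Rps24. It was lowest in vehicle 2, but lower in BPA 1 (10.6%) than in BPA 2 (11.1%). Adding the pseudogene rows to their members left 8 members with fewer than 100 counts, in place of 20.

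**Figure D3:**
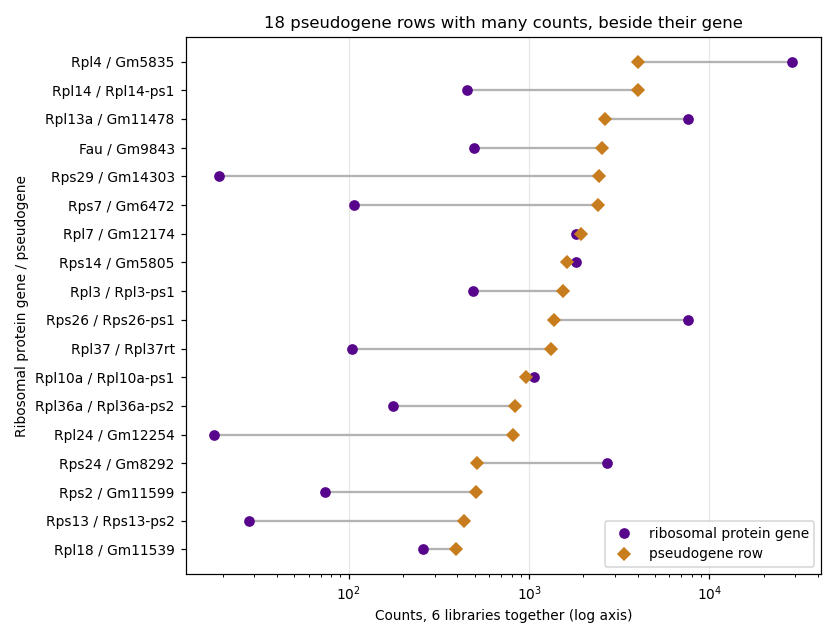
Counts over all 6 libraries (log axis) for 18 of the pseudogene rows with many counts, as diamonds, and for the ribosomal protein gene with the same coding words, as circles. The pseudogene lies to the right of its gene in 12 of the 18 pairs, with the widest gap for Rps29 and Gm14303 at 19 and 2442 counts.

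Of the paralogs with a restricted use, Rpl10l, Rpl39l and Rpl3l were at 0 or near it. Rpl10l and Rpl39l were listed at 0 in all 6 libraries, which allows up to 0.422 CPM in the deepest, and Rpl3l had 2 counts in BPA 1 and 1 in BPA 2. Their ubiquitous partners Rpl10, Rpl39 and Rpl3 had 372, 119 and 488 counts. Rps27l, a paralog of Rps27 that Trp53 can induce, had 18, 32 and 21 counts with vehicle and 17, 24 and 5 with BPA, whereas Rps27 had 43 counts in all and was not tested. Rps27 shared all of its coding words and Rps27l 48.3% of them, so the order of this pair is that of the counted reads only. Rps4x, the X-linked small subunit gene, had 2003 counts and Rps4l, annotated as a transcribed pseudogene, had 401. Rps4l was at 12.5 CPM per kilobase, above the median of 5.65 for the members tested. It overlaps the coding gene Tmtc1, whose reads its counts can hold.

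Between vehicle and BPA, none of the 67 members passed the adjusted threshold of 0.1 (edgeR's quasi-likelihood test, Benjamini-Hochberg over all 13741 genes tested), and neither did any other gene (0%). Of all genes tested 302 (2.20%) had an unadjusted p under 0.05, of which 1 was a member (1.49% of 67), Rplp2. DESeq2 called 3 genes at the threshold and limma-voom none, and no call was a member. The median log2 fold change of the members was -0.02 and that of all genes was 0.00, and 38 of the 67 members (56.7%) were on the lower side with BPA. It was -0.02 for the large and -0.04 for the small subunit. The SE of a member's log2 fold change ran from 0.099 for Rpl4 to 0.42 for Rpl17, with a median of 0.211. Changes of the size of these errors could not be told from none. In whole tissue, fewer cells of a type and less RNA per cell cannot be told apart.

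The share of all counts on the members differed between the groups by less than the spread of the libraries. The share was 0.454%, 0.483% and 0.539% with vehicle and 0.454%, 0.538% and 0.434% with BPA, or 0.492 ± 0.0431% and 0.475 ± 0.0550% (SD, n = 3 each). The highest value was in vehicle 3 and the lowest in BPA 3, and the groups overlapped. The word-sharing pseudogene rows added 0.127 ± 0.0126% with vehicle and 0.117 ± 0.0118% with BPA. The median deviation of the members from their own mean over all libraries was -0.08, -0.05 and 0.13 on the log2 scale in vehicle 1 to 3 and -0.04, 0.07 and -0.04 in BPA 1 to 3. Vehicle 3 and BPA 2 were on the high side and the other 4 on the low side, irrespective of the treatment. Summed red blood cell markers were 451, 284 and 597.5 CPM in the vehicle libraries and 333, 414 and 351 CPM in the BPA libraries, highest in vehicle 3 as well. All 8 of these markers had counts, and their part in the deviations was not tested.

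Rplp2, which pairs with Rplp1 in the stalk and whose start window is printed above, had the smallest p. It was at 63.4, 88.4 and 61.7 CPM with vehicle and 59.2, 59.8 and 43.8 CPM with BPA, so all BPA libraries lay below all vehicle libraries, by a small margin except for vehicle 2 and BPA 3. The log2 fold change was -0.38 (SE 0.152, adjusted p = 0.9998, edgeR). Without vehicle 2 it was -0.19, and without both libraries high in choroid plexus markers it was -0.25. The groups overlapped for the other stalk proteins, with values of 387, 315 and 434 CPM with vehicle and 372, 409 and 373 CPM with BPA for Rplp0, and 332, 552 and 476 with vehicle and 372, 509 and 320 with BPA for Rplp1.

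The groups did not overlap for 5 members. BPA was lower for 3 of them (4.48% of those tested, against 3.56% of all genes), Rplp2, Rpl28 and Rpl31, and higher for 2 (2.99% against 3.19% of all genes), Rpl3 and Rps12. These shares were near those of all genes. Rpl28, Rpl31 and Rpl3 overlap the coding genes Ube2s, Tbc1d8 and Syngr1, in that order, and their counts can hold reads of those genes. Rpl3, which shapes the catalytic center, was at 9.71, 13.8 and 14.001 CPM with vehicle and 17.6, 14.1 and 15.8 CPM with BPA, with a log2 fold change of 0.35 (SE 0.185, adjusted p = 0.9998, edgeR). Rpl3 shares 95.7% of its coding words with other loci, and its pseudogene row Rpl3-ps1 held 1552 counts to its 488. With the word-sharing pseudogene rows added to Rpl3, the log2 fold change was 0.01. The same sum moved other members away from 0. With it, 5 members had an unadjusted p under 0.05 in edgeR (6.49%, against 2.19% of all genes), all lower with BPA. Among them were Rps29 (-0.42), which was too low to test alone, and Rps28 (-0.54, against -0.17 alone). Rps29 itself held 19 of the 2461 counts of its sum, and Rps28 held 61 of 410. Most counts of these sums were thus those of pseudogene rows. Another of the 5 members changed from the higher side alone to the lower side with the sum. The adjusted p of Rps29 and of Rps28 was 0.9998 (edgeR). Rps12 was at 1.32, 1.27 and 1.58 CPM with vehicle and 2.04, 1.95 and 1.75 CPM with BPA, from 57 counts in all, and its log2 fold change of 0.49 had an SE of 0.367. Rpl28 was at 15.3, 17.6 and 17.6 CPM with vehicle and 13.2, 15.3 and 15.2 CPM with BPA, where BPA 2 and vehicle 1 were at nearly the same level. Rpl31 was at 3.24, 3.24 and 3.55 CPM with vehicle and 3.14, 3.09 and 2.63 with BPA, and its log2 fold change of -0.15 had an SE of 0.285.

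The other members with the smallest p overlapped between the groups. Rps20, a small subunit protein, was at 121, 111 and 135 CPM with vehicle and 105, 119 and 100.4 with BPA (log2 fold change -0.18, SE 0.109). Rpl7 was at 46.9, 44.6 and 56.6 CPM with vehicle and 56.7, 55.7 and 58.6 with BPA (0.21, SE 0.119), so that vehicle 3 stood with the BPA libraries. Rps19, the gene most often mutated in Diamond-Blackfan anemia, was at 5.74, 7.74 and 7.10 CPM with vehicle and 9.89, 9.10 and 6.71 with BPA (0.35, SE 0.222). The remaining 4 were Rps21 (-0.37), Rpl36 (-0.44) and Rpl23 (-0.23), on the lower side, and Rpl10a (0.27) on the higher side. The value of Rpl10a was 0.01 with its named pseudogene rows summed in and 0.08 without vehicle 1. That of Rps19 was 0.20 with its named pseudogene rows summed in. The adjusted p was 0.9998 for each of them in the edgeR test.

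**Figure D4:**
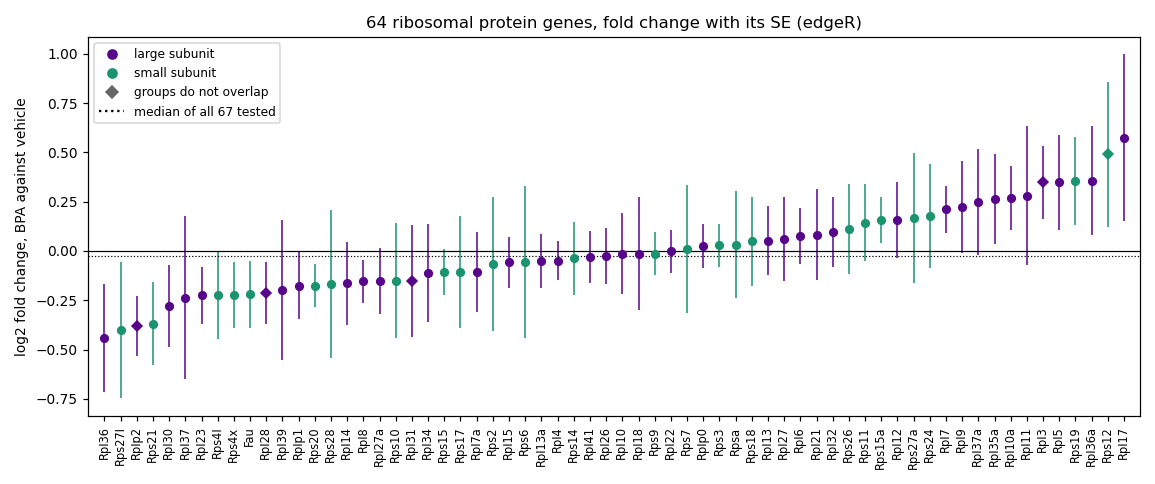
Log2 fold change of BPA against vehicle for 64 of the 67 ribosomal protein genes tested, in order, with its SE as the bar; diamonds mark the 5 genes whose libraries do not overlap between the groups. The values run from -0.44 for Rpl36 to 0.57 for Rpl17 around a median of -0.02 for all 67, and the bar crosses 0 for 41 of these 64 genes.

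Larger differences lay between libraries of the same group. Rps26, whose printed sequence follows, was at 140, 279 and 199 CPM in vehicle 1 to 3 and at 175, 319 and 172 CPM in BPA 1 to 3. Vehicle 2 and BPA 2 were the highest of their groups. Rps24 was at 43.2, 108 and 60.9 CPM with vehicle and 79.1, 106 and 52.8 CPM with BPA, again highest in vehicle 2 and BPA 2. The SD of log2 levels over the 6 libraries was 0.453 for Rps26 and 0.538 for Rps24, at or above the 94.5 percentile of all genes tested, whereas the median was 0.249 for the members and 0.176 for all genes. Both proteins belong to the small subunit, and mutations of both genes occur in Diamond-Blackfan anemia. Ttr, the main choroid plexus transcript, was at 2.21, 195 and 5.72 CPM with vehicle and 11.9, 308 and 10.2 CPM with BPA. All 5 choroid plexus markers had counts, and their part in the Rps26 and Rps24 levels was not tested. Rps24 was also at 79.1 CPM in BPA 1, where the summed choroid plexus markers were at 17.1 CPM.

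Rps26-ps1, a transcribed pseudogene within Wwp2 (chr8:107439131-107439579, minus strand), was lowest within each group in the library where Rps26 (chr10:128624534-128626747, minus strand) was highest. Rps26-ps1 was at 58.8, 32.7 and 54.6 CPM with vehicle and 35.2, 21.8 and 33.6 CPM with BPA. All BPA libraries lay below vehicle 1 and vehicle 3, and the groups overlapped through vehicle 2. Between the groups the relation did not hold, as BPA 1 and BPA 3 were below vehicle 3 for Rps26 as well. Reads of Wwp2 cannot be told apart from those of Rps26-ps1 without knowing how strand was used. The coding sequences differ at 2 of 345 bases, 1 of which is in capitals among the first 60:
Rps26: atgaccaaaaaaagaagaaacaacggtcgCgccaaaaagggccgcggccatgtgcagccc
Rps26-ps1: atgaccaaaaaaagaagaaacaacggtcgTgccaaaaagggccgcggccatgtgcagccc

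**Figure D5:**
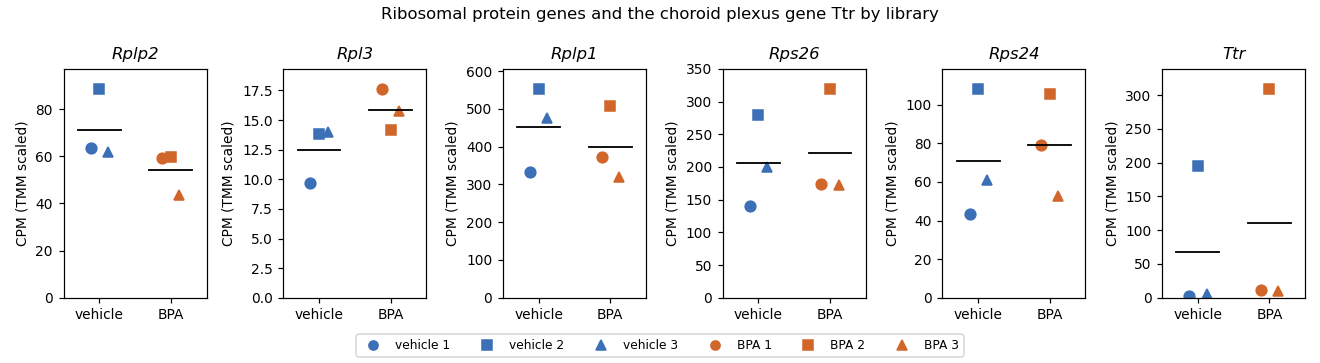
Level in CPM (TMM scaled, linear axes from 0) of 5 ribosomal protein genes and of the choroid plexus gene Ttr in each library, with the group means as bars. Vehicle 2 and BPA 2, the squares, are the highest of their groups for Rplp1, Rps26, Rps24 and Ttr. The same holds for Rplp2, where BPA 2 is only just above BPA 1. The only genes here without overlap between the groups are Rplp2 and Rpl3.

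The genes that make ribosomes and those that are regulated with them also did not pass the threshold. Of 24 other TOP genes tested, 9 were on the higher and 15 on the lower side with BPA, their median was -0.04 on the log2 scale, and none had an unadjusted p under 0.05. Of these, Npm1, a nucleolar protein of ribosome assembly, had a log2 fold change of -0.28 (SE 0.150), and Eif4a2, a helicase of translation initiation, one of 0.18 (SE 0.098). Of 69 ribosome biogenesis genes, 41 were on the higher side, with a median of 0.02 and none under 0.05. Here the smallest p belonged to Utp3 (0.25, SE 0.121) and Nop16 (0.32, SE 0.161). Of 31 genes of the mTOR pathway and of TOP control, 16 were on the lower side, among them Eif4ebp2 (-0.21, SE 0.112), which blocks the cap-binding factor, and none was under 0.05.

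Genes of 2 RNA polymerase subunits had an unadjusted p under 0.05 among 19 tested on the list of RNA polymerase I, which transcribes the large rRNA precursor, against 2.20% of all genes tested. Polr1a, its largest subunit, was at 47.5, 52.9 and 45.9 CPM with vehicle and 63.6, 57.0 and 57.2 CPM with BPA, higher in every BPA library, with a log2 fold change of 0.28 (SE 0.113, adjusted p = 0.9998, edgeR). Polr2h, shared by the 3 nuclear polymerases, was at 16.0, 14.1 and 15.4 CPM with vehicle and 19.9, 19.99 and 18.7 CPM with BPA (log2 fold change 0.37, SE 0.149). The list's median was 0.08, with 14 genes on the higher side, where 6942 of all 13741 genes tested also lay. Among 74 mitochondrial ribosomal proteins tested, 2 had an unadjusted p under 0.05, Mrpl33 (0.54, SE 0.206) and Mrpl23 (0.91, SE 0.398), against the same 2.20% of all genes, and 37 were on each side. Of 7 ribosomal protein-like genes outside the rule, none was under 0.05, and Rsl24d1 (-0.22, SE 0.202) and Rpl7l1 (0.05, SE 0.120) had the smallest p.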

How the data were processed

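Raw gene-level counts, as deposited by the authors, were used for all 6 libraries. According to the study's methods and the labels' processing notes, strand-specific libraries were sequenced as single reads of 50 bases, aligned with TopHat2 2.0.14 to GRCm38 and counted with featureCounts. Use of strand and of reads with several matches is not given in the sources used here. Groups came from the labels, and replicates were numbered in accession order. The labels do not say whether samples of the 2 groups belong together, and they were treated as unpaired.

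Counts were analysed in R 4.3.3 with edgeR 4.0.16 (filterByExpr with a minimum count of 10 and a minimum total of 15, TMM, quasi-likelihood test, Benjamini-Hochberg threshold 0.1), limma 3.58.1 and DESeq2 1.42.0, tested on simulated data. Exonic length, coding sequence and words came from GENCODE M21. A pseudogene row was assigned to 1 member from 50 shared coding words on. Of the 82 members, 26 overlap another annotated gene other than small RNA genes, and their counts can hold its reads. The members and lists were chosen with earlier results of these data known. Genes were named by rule: the 10 smallest p, the 6 highest and 6 lowest levels, paralogs, stalk proteins and well-known members, members without overlap, and 2 genes of each list. Rps26, Rps24, Rps3, the other members named for sequence sharing and the pseudogenes were chosen after their values were seen. The 3 members left out of the plots are not reported here one by one, and remain in the counts and medians.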

Additional observations from a re-analysis of the deposited data

How the results depend on the processing

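No alternative brought a ribosomal protein gene past the adjusted threshold, but the count at an unadjusted p under 0.05 moved. It was 1 in the reported fit (1.49% of those tested, against 2.20% of all genes) and 2 with no filter (2.5% against 2.64%). After thinning to the smallest library it was 2 (3.33% against 2.41%). With named pseudogene rows summed it was 3 (4.17% against 2.18%), and with word-sharing pseudogene rows summed 5 (6.49% against 2.19%). Without 1 library it was 0 to 7. Those lower with BPA numbered 1 in the reported fit, 2 with no filter, 3 and 5 with the sums, and 0 to 5 without 1 library; those higher numbered 0, 1 after thinning, and 0 to 3 without 1 library. The 7 without vehicle 2 were 10.4% of those tested, against 5.1% of all genes, the 5 without BPA 2 were 7.35% against 4.02%, and the 0 came without BPA 3. Without both libraries high in choroid plexus markers, an alternative chosen after seeing the data like the word-sharing sums, 7 members (4 lower and 3 higher) were 10.8% of those tested, against 6.99% of all genes. The genes past the threshold among all genes were 0 in the reported fit, 19 with no filter, 3 with DESeq2, 15 without both libraries high in choroid plexus markers, and 0 to 1 without 1 library. The median log2 fold change of the members was -0.09 to 0.02 without 1 library. The 13 genes named for the comparison kept their direction in 218 of 219 values over 17 alternatives, and Rpl31 turned to 0.0914 after thinning. These genes were chosen by small p or by lack of overlap in the same libraries. Their kept direction was thus partly fixed by that choice and does not describe the other members. The median level was 5.65 CPM per kilobase as reported, 7.30 per kilobase of words not found in another gene, 12.7 with the longest coding transcript, 25.2 with the coding length, 11.0 with named and 13.8 with word-sharing pseudogene rows summed. The range of levels was 1050-fold as reported, 494-fold with the longest coding transcript, 527-fold with the coding length and 2480-fold per kilobase of words not found in another gene. With the coding length 3 of the 6 highest members remained among the highest, and with the others at least 5. The cause of these shifts was not tested. The difference in the share of counts moved by less than 1 SD of the libraries under each of its alternatives. No paired analysis was possible because the labels give no replicate numbers. Depth limits what can be seen of the 20 members with fewer than 100 counts in all libraries together.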
